A study of Mus musculus with 9 samples.

Results

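In p53-/- mouse embryonic cell clones, genes of chromosome 10 were shifted down in all 3 triploid clones relative to the diploid mean, with medians between -0.26 and -0.18 on the log2 scale, and up in tetraploid clones 1 and 2, with medians of 0.13 and 0.20. The chromosome was represented by 593 measured genes, of 922 chromosome 10 genes on the array and of 12437 measured genes in all. A gene belonged to it where the RefSeq accession that the array design gives for its probe maps to mouse chromosome 10. The brightest probe stood for each gene, and a gene counted as measured where at least 1 ploidy had that probe well above background in all 3 of its clones. Chromosome 10 was selected on its median shift from the diploid mean in these same clones, so its medians are given as a description, with no test.

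The series compared gene expression in cells that differ in ploidy, the number of complete chromosome sets. It held 3 triploid clones (RRI2-5, RRI2-12 and RRI2-15), 3 tetraploid clones (RRI2-2, RRI2-4 and RRI2-6) and 3 diploid clones (RRI2, RRI15 and RRI2-1), each on 1 one-colour Agilent array, and the clones of a ploidy are numbered here in that order. All groups lack p53, were grown in serum-supplemented medium, were untreated before RNA extraction and have no p53 wild-type counterpart here. Each sample is 1 clone, the age of the embryos and the way each ploidy arose are not given in the sources used here, and nothing says whether clones of a ploidy came from separate embryos. The genotype field reads p53-/- for all samples, while free text of 8 samples carries other gene numbers in its place, which were read as entry errors.

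Mouse chromosomes have the centromere at one end, so gene order along chromosome 10 runs from the centromere to the other end of 1 long arm. In cells that gain or lose copies of a chromosome, the RNA of most of its genes follows the number of copies, while some genes are buffered. Cells without p53, a factor that stops or kills cells after chromosome damage, tolerate such changes better than cells that have it. A change in the number of whole chromosome sets leaves no trace in the values used here where it alters the RNA of all genes alike, since each array was scaled on its own genes. Where it alters some genes more than others, the difference stays in the values, and its part in any shift below was not tested. DNA copies were not measured in these files, and their part in any shift below was not tested.

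Between 44.8% and 50.9% of spots were well above background on each array, and no spot was saturated. Of 10 fibroblast markers, 9 were well above background on all 9 arrays, and the exception, Thy1, on 7. None of 4 epithelial and none of 4 blood markers was above background on all arrays. Of these, the epithelial Krt18 was above it on 6 arrays and Krt8 on 2, and the blood marker Tyrobp on 1. The muscle markers Myod1, Myog and Des were above background on none. Of 5 pluripotency markers, Pou5f1 and Zfp42 were dark throughout, Nanog and Utf1 were detected on all 9 arrays at levels below 0, and Dppa5a on 8. Of 4 endothelial markers, Kdr (3.75 to 5.17) and Pecam1 (-2.65 to -2.08) were above background on all 9, on a log2 scale whose 0 is each array's own 75th percentile. Cdh5 and Tek were above background on 1 array each. Diploid clone 1 was hybridised alone on 1 slide and the other 8 clones on another, so a fit with the slide as a block equals a fit without that clone. In bulk RNA, fewer cells that express a gene and less RNA per cell cannot be told apart.

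The promoters of Col10a1, Sash1 and Chst3 are shown because these genes had the largest drops among those called lower in triploid clones against both other ploidies and listed with 1 promoter window. Col10a1 encodes type X collagen of cartilage that is turning to bone, Sash1 a scaffold protein of signalling at the cell cortex, and Chst3 a sulfotransferase that sulfates chondroitin chains. Each window runs from 250 bases before to 50 bases after the gene's start, 5′ to 3′ on the gene's strand, as RefSeq gives it for GRCm38.p6. The windows are chr10:34389731-34390030 on the plus strand for Col10a1, chr10:8886021-8886320 on the minus strand for Sash1 and chr10:60219211-60219510 on the minus strand for Chst3. Capitals mark, on either strand, matches to TATAAA of the TATA box, to GGGCGG of the GC box and to the CCAAT box; no 2 matches overlap.
Col10a1: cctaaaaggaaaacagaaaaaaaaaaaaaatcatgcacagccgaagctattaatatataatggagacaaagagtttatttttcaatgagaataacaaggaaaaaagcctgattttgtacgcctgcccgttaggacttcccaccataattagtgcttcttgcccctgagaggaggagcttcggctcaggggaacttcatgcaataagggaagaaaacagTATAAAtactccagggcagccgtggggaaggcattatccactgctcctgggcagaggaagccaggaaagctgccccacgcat
Sash1: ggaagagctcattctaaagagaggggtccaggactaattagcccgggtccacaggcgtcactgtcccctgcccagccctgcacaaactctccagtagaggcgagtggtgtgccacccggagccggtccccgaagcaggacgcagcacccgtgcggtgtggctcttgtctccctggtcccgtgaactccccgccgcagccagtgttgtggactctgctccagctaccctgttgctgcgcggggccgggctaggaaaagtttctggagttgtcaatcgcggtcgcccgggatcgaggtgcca
Chst3: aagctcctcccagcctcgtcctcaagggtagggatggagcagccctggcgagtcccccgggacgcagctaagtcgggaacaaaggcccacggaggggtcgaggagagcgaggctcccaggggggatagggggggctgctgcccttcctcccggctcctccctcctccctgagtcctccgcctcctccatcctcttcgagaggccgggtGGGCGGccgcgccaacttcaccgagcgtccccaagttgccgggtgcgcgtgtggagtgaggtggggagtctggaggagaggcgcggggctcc
The 3 windows differ in base composition: Col10a1 holds 6 CpG dinucleotides and 1 TATAAA, Sash1 holds 20 CpG and none of the 3 motifs, and Chst3 holds 22 CpG and 1 GGGCGG.

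A promoter window was listed for 497 of the 593 measured chromosome 10 genes, with 631 windows in all. TATAAA stood in 7.45% of these windows, against 13.6% of all 32851 windows of the table. GGGCGG, the core of the GC box, stood in 61.5% against 35.7%, and CCAAT in 36.3% against 37.4%. The median window held 21 CpG against 7 in the whole table. The chromosome 10 windows belong to genes that passed the background filter, while the whole table was not filtered. Measured genes of other chromosomes were not counted, so these shares are not read as a trait of chromosome 10. Among the 38 genes called lower in triploid than in tetraploid clones, 33 had a window, and of their 46 windows 6.52% held TATAAA, 56.5% GGGCGG and 45.7% CCAAT. These are matches of letters on either strand, and they say nothing about which factors bind.

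As a whole, chromosome 10 lay lower in the triploid clones and, in 2 of 3 clones, higher in the tetraploid clones than in the diploid mean. For each clone the log2 value of each gene was set against the mean of the diploid clones (for a diploid clone, against the other 2), and the clone was centred on its median over all measured genes. The median shift over the 593 genes was -0.19, -0.18 and -0.26 in triploid clones 1 to 3. It was 0.13, 0.20 and -0.04 in tetraploid clones 1 to 3, and 0.04, -0.00063 and -0.02 in diploid clones 1 to 3. The triploid values lay below those of all other clones, and tetraploid clone 3 lay just below the diploid clones, away from the other tetraploid clones. With arrays scaled on their median over all probes and no centring on all measured genes, the median of tetraploid clone 3 turned to 0.39. Those of the diploid clones then ran from -0.32 to 0.24, so the shifts hold only relative to the other genes of the same clone. Group means of the shift were -0.21 ± 0.05 in triploid, 0.09 ± 0.12 in tetraploid and 0.01 ± 0.03 in diploid clones (SD, n = 3 each).

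**Figure D1:**
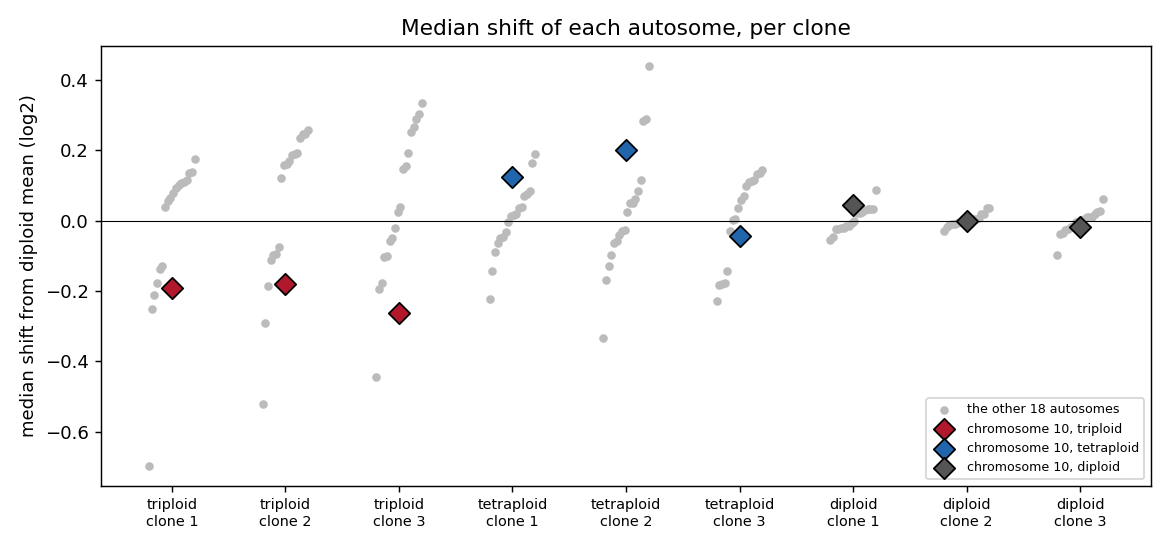
Median log2 shift from the diploid mean (y axis) of each autosome in each of 9 clones (x axis); diamonds are chromosome 10 and grey points the other 18 autosomes. Chromosome 10 lies at -0.19, -0.18 and -0.26 in the triploid clones, above 0 in tetraploid clones 1 and 2, and near 0 in tetraploid clone 3 and the diploid clones.

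The share of genes above 0 followed the medians. It was 35.6%, 40.1% and 31.2% in triploid clones 1 to 3, 62.4%, 61.7% and 47.6% in tetraploid clones 1 to 3, and between 48.4% and 52.95% in the diploid clones. Single genes were spread widely around these medians: in triploid clone 1 the lower and upper quartiles of the shift were -0.64 and 0.14. Among 19 autosomes, chromosome 10 was the fourth from the lowest in triploid clones 1 and 2 and the second from the lowest in triploid clone 3. It was the third and the fourth from the highest in tetraploid clones 1 and 2 and the sixth from the lowest in tetraploid clone 3. Other autosomes moved further in the same clones: chromosome 12 stood at -0.70 in triploid clone 1, chromosome 7 at -0.52 and -0.44 in triploid clones 2 and 3, and chromosome 15 at 0.44 in tetraploid clone 2.

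The same chromosome can be read without the diploid mean, from the median level of its genes relative to all genes of the array. That level was -0.21, -0.11 and -0.30 in triploid clones 1 to 3, 0.22, 0.25 and 0.14 in tetraploid clones 1 to 3, and 0.05, 0.11 and 0.14 in diploid clones 1 to 3. This level comes from the same arrays and genes on which the chromosome was selected, so it is a description too. All triploid clones lay below all tetraploid clones, and tetraploid clone 3 and diploid clone 3 both stood at 0.14. The differences between group means were -0.31 for triploid minus diploid, 0.11 for tetraploid minus diploid and -0.41 for triploid minus tetraploid. With each gene first centred on its mean, an alternative chosen after seeing the data, they were -0.21, 0.11 and -0.32.

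The downward shift of the triploid clones was spread along the chromosome and not carried by 1 stretch. The genes were cut into 23 consecutive blocks of 25 genes from the centromere, the last holding 43. Block medians were below 0 in 22, 15 and 22 of 23 blocks in triploid clones 1 to 3. They were below 0 in 3, 3 and 14 blocks in tetraploid clones 1 to 3 and in 9, 10 and 13 blocks in the diploid clones. Over 451 blocks of the other autosomes cut the same way, 45.7%, 42.4% and 41.02% lay below 0 in triploid clones 1 to 3 and 49.2%, 50.8% and 48.8% in tetraploid clones 1 to 3. All 3 triploid clones were below 0 in 15 chromosome 10 blocks, against 23.3% of other blocks, and all 3 tetraploid clones were above 0 in 9, against 25.9%.

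The triploid clones differed in where along the chromosome they were low. In the second block from the centromere, from Rab32 to Perp, the medians were -0.08, -0.39 and -0.46 in triploid clones 1 to 3. In the fourth, which ends at Tspyl4, they were -0.06, -0.46 and -0.56, so clone 1 stayed near 0 where clones 2 and 3 were low. In block 7, from Msl3l2 to Unc5b, clone 1 was the lowest, with -0.57, 0.08 and -0.13 in triploid clones 1 to 3. Block 22, from Tspan31 to Rdh19, was low in all 3 at -0.65, -0.43 and -0.59. Block 17, from Rfx4 to Arl1, was the highest in triploid clones 2 and 3 at 0.22 and 0.08, and stood at -0.07 in clone 1.

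Tetraploid clone 3 stood apart from tetraploid clones 1 and 2 in several stretches. Near the centromere, block 4 had 0.32, 0.25 and -0.22 in tetraploid clones 1 to 3, and block 6, from Cep57l1 to Tbc1d32, had 0.28, 0.51 and -0.08. Block 7 was high in all of them at 0.37, 0.37 and 0.41 in tetraploid clones 1 to 3. In the distal part, in block 18 from Utp20 to Ube2n, clones 1 and 2 had 0.09 and 0.24 while clone 3 had -0.51. Block 20, from Bbs10 to Cand1, repeated this split with 0.11, 0.29 and -0.45. Blocks 12 (Syde1 to Wdr18) and 22 were below 0 in all 3 tetraploid clones. The diploid clones also varied, each against the other 2, with block medians between -0.26 and 0.22.

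**Figure D2:**
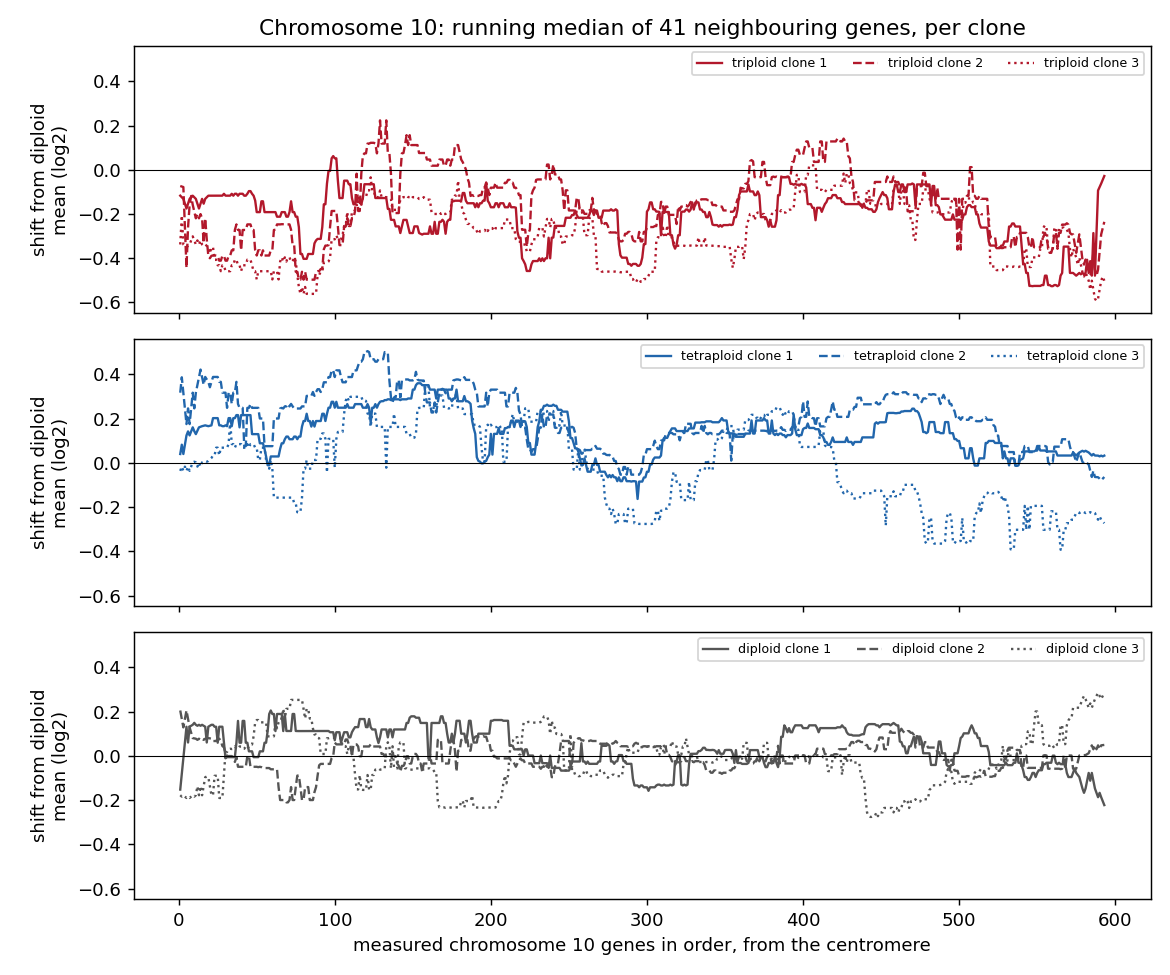
Running median over 41 neighbouring genes of the log2 shift from the diploid mean (y axis), with the 593 measured genes of chromosome 10 in order from the centromere (x axis), 1 line per clone and 1 panel per ploidy. Triploid lines run mostly below 0 along the whole length, tetraploid clones 1 and 2 mostly above it, and tetraploid clone 3 leaves the other two around block 4, which stands at -0.22, and in the distal part, where block 18 stands at -0.51.

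The largest single step in the median, with at least 50 genes on each side, fell at different places. In triploid clone 1 the median was -0.52 over the 67 genes from Os9 outwards and -0.18 over the 526 genes up to Tspan31, a step of -0.34. Triploid clone 3 stepped by -0.25 next to it, between Cdk4 and Tspan31. Triploid clone 2 stepped the other way near the centromere, with -0.14 beyond Perp and -0.40 over the 50 genes up to it. Tspan31, a membrane protein of the tetraspanin family, and Cdk4, the kinase that starts the cell cycle with D-type cyclins, are neighbours in this stretch.

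Steps near the same place also occurred in other ploidies. Tetraploid clone 2 stepped by -0.25 between Os9 and B4galnt1, and tetraploid clone 3 by -0.32 between Lrp1 and Stat6, where the last 50 genes stood at -0.35. Tetraploid clone 1 had a smaller step of -0.14 between Psap and Slc29a3. Diploid clone 3, set against the other diploid clones, stepped by 0.27 between B4galnt1 and Arhgef25, diploid clone 1 by -0.17 and diploid clone 2 by -0.07. Diploid clone 3 enters the mean that all triploid and tetraploid clones are compared with, so their steps in this stretch are not independent of it or of each other. Without diploid clone 2 or 3, the largest step of triploid clone 3 was upwards, at 0.22 or 0.21.

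The triploid and tetraploid clones were also set against each other. The chromosome was selected on shifts of these same clones, so the values describe where along it the groups lay apart and are no separate evidence that they did. Relative to all measured genes, the median difference, triploid minus tetraploid, was below 0 in all 23 blocks of chromosome 10, against 45.0% of the blocks of other autosomes. It ran from -0.76 in block 7 and -0.66 in block 22 to -0.03 in block 20 and -0.02 in block 8, with a median of -0.34. Blocks of the other autosomes ran from -0.57 to 0.51. By the block medians of the shift from the diploid mean, all 3 triploid clones lay below all 3 tetraploid clones in 15 of the 23 blocks (65.2%), against 38 of 451 blocks (8.43%) elsewhere. The difference between triploid and diploid clones was below 0 in 19 blocks, against 40.8% of the blocks of other autosomes. That between tetraploid and diploid clones was below 0 in 4, against 51.7%.

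**Figure D3:**
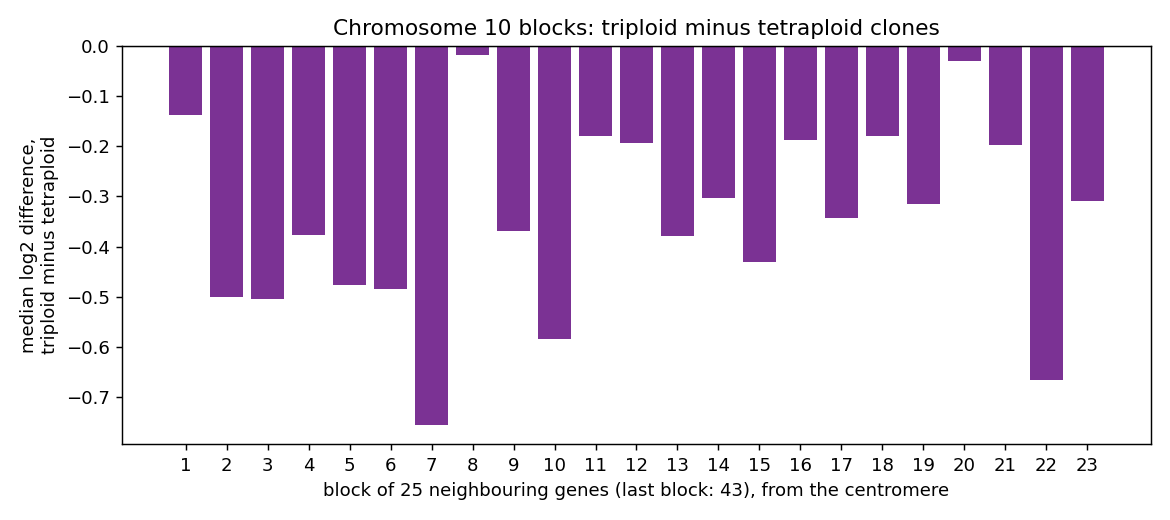
Median log2 difference between triploid and tetraploid clones, triploid minus tetraploid (y axis), in each block of chromosome 10 from the centromere (x axis). All 23 bars lie below 0, the deepest in block 7 at -0.76 and block 22 at -0.66.

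Within chromosome 10, the size of the shift varied with the mean level of the genes. Over its 184 dimmest, 193 middle and 216 brightest genes, triploid clone 2 had medians of -0.24, -0.21 and -0.09 and tetraploid clone 2 had -0.05, 0.16 and 0.37. The median difference, triploid minus diploid, was -0.17, -0.14 and -0.01 in the same order. Other autosomes varied with level too, so chromosome 10 was also set against them. The median difference of chromosome 10 minus that of the other autosomes, for triploid minus tetraploid clones, was -0.33, -0.37 and -0.35 from the dimmest to the brightest genes. For triploid minus diploid clones it was -0.21, -0.27 and -0.19 in the same order, and for tetraploid minus diploid clones 0.09, 0.08 and 0.11. A second probe gave like values: in the 133 genes with more than 1 kept probe, the second brightest gave -0.22, -0.13 and -0.25 in triploid clones 1 to 3, and 0.14, 0.23 and -0.09 in tetraploid clones 1 to 3. The brightest probe of the same genes gave -0.17, -0.17 and -0.24 in the triploid clones and 0.14, 0.24 and -0.11 in the tetraploid clones.

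Probes that the membership rule left out were read too, on the same arrays and clones whose shifts chose the chromosome. The array carries 720 probes for long intergenic transcripts that its design places on chromosome 10 by mm9 coordinates, of which 154 passed the same background filter. Their median shift was -0.03, -0.33 and -0.45 in triploid clones 1 to 3 and -0.24, -0.34 and -0.60 in tetraploid clones 1 to 3. Minus the median of 4108 such probes on the other autosomes, it was -0.19, -0.27 and -0.29 in triploid clones 1 to 3. In tetraploid clones 1 to 3 it was -0.05, -0.21 and -0.08, and in diploid clones 1 to 3 it was 0.02, -0.07 and -0.02. After this subtraction, the intergenic probes of chromosome 10 lay below 0 in all triploid and tetraploid clones and in diploid clones 2 and 3. They were not high in tetraploid clones 1 and 2, where its genes were. Tetraploid clone 2 (-0.21) lay below triploid clone 1 (-0.19), so these probes did not set the triploid clones apart.

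Gene by gene, chromosome 10 had its most calls between triploid and tetraploid clones, nearly all of them lower in triploid clones. Of 593 genes, 38 (6.41%) were called lower in triploid clones and 2 (0.337%) higher, at an adjusted p under 0.05 in limma, a linear model with moderated variances fitted over all 21800 features. Over all features, 2.71% were called, 1.62% lower and 1.09% higher. Over all measured genes, 3.33% were called, 2.4% lower and 0.933% higher. The shifts of these clones chose the chromosome, so the counts describe its genes and nothing is read from their excess over the background. All 40 genes had groups that did not overlap, and 39 of them differed by more than 2-fold. Triploid clones lay wholly below tetraploid clones at 187 genes (31.5%), against 11.3% of all features, and wholly above them at 20 (3.37%), against 14.7%. Over all measured genes these shares were 15.5% and 12.4%.

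The number of calls leaned on single clones. Leaving out triploid clone 1 gave 64, and leaving out triploid clone 2 or 3 gave 4. It was 3 with tetraploid clone 1 left out, 5 with tetraploid clone 3 left out and 14, all lower in triploid clones, with diploid clone 1 left out, which was alone on its slide. Of the 40 genes, 31 were well above background on all 9 arrays, 4 passed the background filter through 2 ploidies, 4 through the tetraploid and 1 through the triploid clones alone, and the last 5 could enter only where that ploidy was high.

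**Figure D4:**
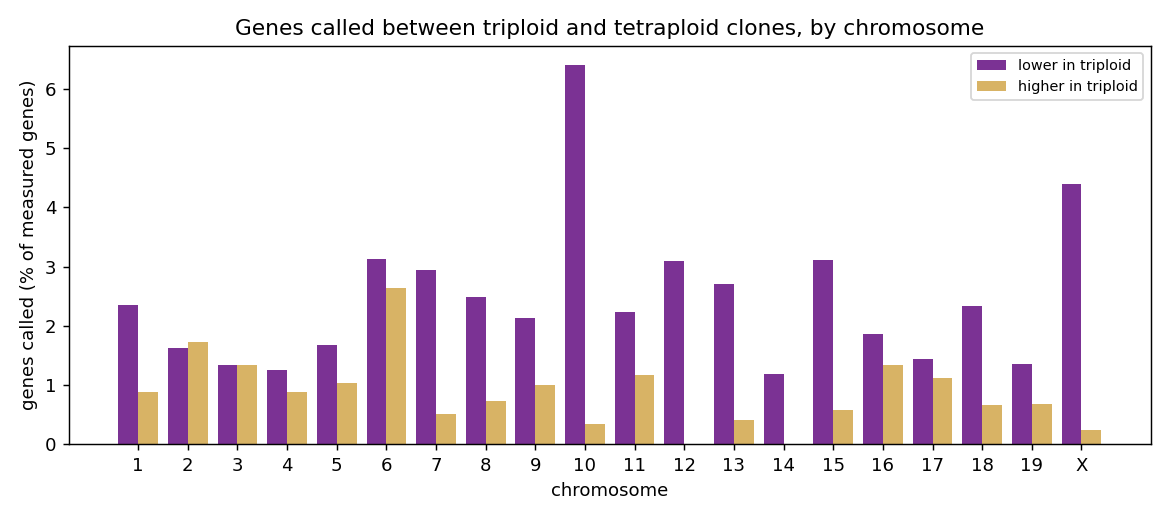
Share of measured genes called lower or higher in triploid than in tetraploid clones (limma, adjusted p under 0.05; y axis, percent) on each chromosome (x axis). Chromosome 10 has 6.41% called lower and 0.337% called higher in triploid clones.

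The calls were scattered: 20 of the 23 blocks held at least 1. Called neighbours were Fig4 and Zbtb24, Chst3 and Psap, Gstt3 and Gstt1, S100b and Dip2a, and Suox and Rab5b. Fig4 is a phosphoinositide phosphatase, Zbtb24 a zinc finger protein, Psap the precursor of the saposins that help break down sphingolipids in lysosomes, and Suox sulfite oxidase. Psap stood at 3.49, 3.85 and 3.42 in triploid clones and 5.04, 4.47 and 4.94 in tetraploid clones, on a log2 scale whose 0 is each array's own 75th percentile. The groups did not overlap, with a difference of -1.23 ± 0.25 (SE, adjusted p = 0.0376, limma). Its diploid values of 4.30, 3.80 and 4.07 lay between, overlapping the triploid ones.

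Among matrix genes, Col10a1 had the largest fitted difference of all 40 called genes. It had -2.99, -5.10 and -5.62 in triploid clones 1 to 3, with only clone 1 well above background, against 3.95, 2.94 and 4.58 in tetraploid clones. The fitted difference was -8.40 ± 0.85 on the log2 scale (SE, adjusted p = 0.00313, limma), and its size rests in part on the 2 dark triploid arrays. In diploid clones Col10a1 had 0.18, -1.71 and 1.18, all above background, between the other ploidies and overlapping neither, and triploid minus diploid was -4.45 ± 0.85 (adjusted p = 0.0431, limma). Col10a1 stayed past the threshold against tetraploid clones in all 16 alternative settings run for it, and against diploid clones in 7 of 16.

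Chst3 passed the background filter through the tetraploid clones alone, so it could enter only where they were high. It was dark in all triploid clones, at -5.79, -5.88 and -5.93, against -1.97, -1.84 and -2.64 in tetraploid clones. The signal was at least 3.06-fold lower in triploid than in tetraploid clones (means -5.86 and -2.15, adjusted p = 0.00493, limma). Such bounds set the mean of the brighter group against, on each array, the higher of the probe's own signal and the lowest signal of any probe well above background. In diploid clones Chst3 had -3.53, -3.79 and -2.13, with 2 of 3 above background, and it was at least 1.53-fold lower in triploid than in diploid clones (adjusted p = 0.0219, limma). Ust, a uronyl sulfotransferase of the same kind of sugar chains, was also dark in triploid clones and at least 4.72-fold lower than in diploid clones (means -4.13 and -1.43, adjusted p = 0.0434, limma).

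Lum encodes lumican, a small proteoglycan that binds collagen fibrils, and passed the filter through the tetraploid clones alone. It was dark in the triploid clones at -5.68, -6.00 and -4.94, against -2.19, -0.17 and 0.19 in tetraploid clones, at least 8.24-fold lower (adjusted p = 0.0363, limma). The diploid clones spread from -1.01 and -1.75 in clones 1 and 2 to -4.82, not above background, in clone 3. Col18a1, the collagen whose end fragment is endostatin, had -1.76, 0.46 and -1.02 in triploid clones, against 2.21, 1.95 and 2.54 in tetraploid clones. These groups did not overlap, with a difference of -3.01 ± 0.64 (SE, adjusted p = 0.0452, limma).

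Sash1 was well above background on all arrays and called in both comparisons of the triploid clones, which share those clones. It had -1.18, -0.93 and -1.96 in triploid clones, against 3.21, 2.13 and 3.80 in tetraploid clones and 2.53, 2.65 and 1.23 in diploid clones. Triploid clones lay below all others, by -4.40 ± 0.52 from tetraploid clones (SE, adjusted p = 0.0056, limma) and by -3.49 ± 0.52 from diploid clones (adjusted p = 0.0187). Against tetraploid clones the call held in all 17 alternative settings, and against diploid clones in 12 of 17. Tmcc3, a membrane protein with coiled coils, had 0.00, -1.69 and -0.50 in triploid clones, against 1.94, 0.77 and 1.69 in tetraploid and 2.61, 2.63 and 2.22 in diploid clones. It was lower in triploid than in diploid clones by -3.22 ± 0.45 (adjusted p = 0.0153, limma). The call of Tmcc3 held in 13 of 17 settings against diploid clones and in 8 of 17 against tetraploid clones.

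Among genes best known from nerve tissue, Lrrtm3 and S100b were not detected in any triploid clone. Both passed the filter through the tetraploid clones alone, so they could enter only where those were high. Lrrtm3, a membrane protein of synapses, was dark in triploid clones at -5.76, -6.08 and -5.86, against 1.37, 1.11 and 2.29 in tetraploid clones, at least 40.98-fold lower (adjusted p = 0.0294, limma). Diploid clones split, with -0.74 and 0.98 in clones 1 and 3 and -5.74, not above background, in clone 2. S100b, a calcium-binding protein typical of glia, was dark at -5.37, -5.80 and -5.61 in triploid clones, against 0.51, -1.39 and 2.29 in tetraploid clones, at least 18.8-fold lower (adjusted p = 0.0227, limma). The neuronal markers Tubb3, Map2 and Snap25 were above background on all 9 arrays, and their part in these differences was not tested.

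The glutathione transferases Gstt1 and Gstt3, enzymes that join glutathione to foreign compounds, lie side by side and are similar in sequence, so their probes may share signal. Gstt1 had 2.42, -1.64 and -0.59 in triploid clones, against 4.83, 3.74 and 5.11 in tetraploid clones, with a difference of -4.50 ± 0.95 (SE, adjusted p = 0.044, limma). Gstt3 had 0.01, -4.74 and -5.33 in triploid clones, against 3.15, 1.44 and 4.09 in tetraploid clones, with a fitted difference of -6.25 ± 1.34 (adjusted p = 0.0457). Only triploid clone 1 was above background for Gstt3, so that size rests in part on 2 dark arrays. In both genes triploid clone 1 stood above the other triploid clones. Diploid Gstt1, at 0.39, 0.44 and 2.17, overlapped the triploid values and lay below all tetraploid ones.

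Only Slc16a10 and Dusp6 were called higher in triploid than in tetraploid clones. Slc16a10, a transporter of aromatic amino acids, had -2.04, -1.16 and -1.28 in triploid clones, against -4.54, -2.92 and -4.42 in tetraploid clones, of which 1 was above background. The fitted difference was 2.47 ± 0.46 (SE, adjusted p = 0.0316, limma), its size rests in part on the 2 dark tetraploid arrays, the diploid values were -3.21, -3.44 and -4.09, and the gene passed the filter through the triploid clones alone. Dusp6, a phosphatase that switches off ERK kinases and is induced by them, had 3.26, 4.19 and 4.09 in triploid clones, against 2.23, 1.302 and 0.79 in tetraploid clones. Its difference was 2.41 ± 0.48 (adjusted p = 0.0376), and its diploid values of 3.12, 3.72 and 2.18 overlapped those of both other ploidies.

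**Figure D5:**
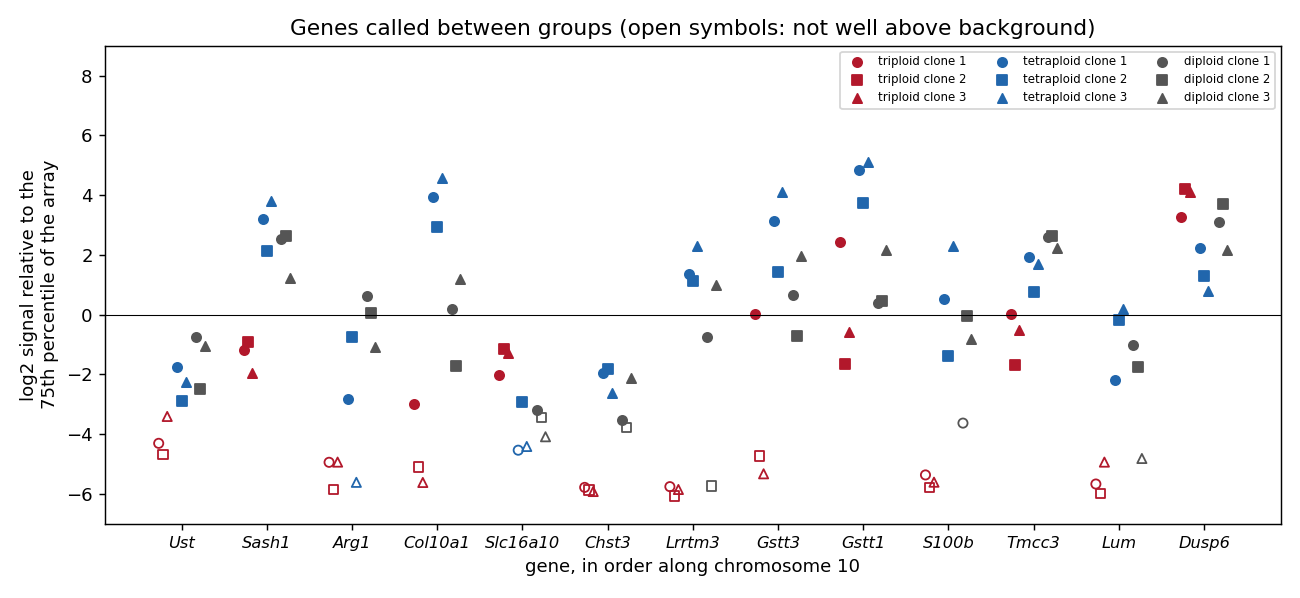
Log2 signal, with 0 at each array's own 75th percentile (y axis), for 13 called genes in order along chromosome 10 (x axis), 1 symbol per clone, open where the probe was not well above background. Slc16a10 and Dusp6 are higher in triploid than in tetraploid clones, and Lrrtm3, S100b, Lum, Ust, Arg1 and Chst3 are dark in all triploid clones.

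Against diploid clones, 13 of 593 genes (2.19%) were called in triploid clones, all of them lower. Over all features 1.84% were called, 1.23% lower and 0.615% higher. Over all measured genes 2.11% were called, 1.42% lower and 0.7% higher. The shift from the diploid mean entered the choice of the chromosome, so nothing is read from this count. Arg1, the arginase of the urea cycle, was dark in triploid clones at -4.95, -5.85 and -4.94, against 0.62, 0.07 and -1.08 in diploid clones, at least 12.4-fold lower (adjusted p = 0.0465, limma), and it passed the filter through the diploid clones alone. Elk3, a transcription factor of the ETS family, had 2.56, 2.59 and 2.25 in triploid clones, against 3.92, 3.44 and 4.23 in diploid clones, a difference of -1.39 ± 0.29 (SE, adjusted p = 0.0493, limma). Stac3, a muscle calcium channel partner, differed by -1.43 ± 0.26 (adjusted p = 0.0367). The other called genes were Dip2a, Cnn2, Dtx3, Zbtb24 and Sgpl1, with differences between -1.35 and -1.02.

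This count depended on the clones even more. It was 0 without diploid clone 1, and 5 and 3 without diploid clones 2 and 3. Leaving out triploid clone 1 gave 44, of which 37 lower, leaving out triploid clone 2 or 3 gave 1, and leaving out tetraploid clone 1, which enters only through the shared variance, gave 3. Triploid clones lay wholly below diploid clones at 104 genes (17.5%), against 10.8% of all features, and wholly above at 53 (8.94%), against 17.2%. Over all measured genes these shares were 11.8% and 19.6%.

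Between tetraploid and diploid clones no chromosome 10 gene was called by limma, against 0.0734% of all features, while 108 of the 593 had an unadjusted p under 0.05 (18.2%, against 14.8% of all features). Without triploid clone 1, 1 gene was called. Tetraploid clones lay wholly above diploid clones at 120 genes (20.2%), against 11% of all features, and wholly below at 36 (6.07%), against 11.2%. Over all measured genes these shares were 15.4% and 7.32%. Col10a1 differed by 3.94 ± 0.85 (SE, adjusted p = 0.103, limma), Gstt1 by 3.56 ± 0.95 (adjusted p = 0.14) and Ifngr1, a chain of the interferon gamma receptor, by 0.72 ± 0.21 (adjusted p = 0.163). The median fitted difference over the 593 genes was 0.20 for tetraploid minus diploid, -0.09 for triploid minus diploid and -0.28 for triploid minus tetraploid. In the same order it was -0.02, 0.10 and 0.16 over all features, and 0.10, 0.10 and 0.04 over all measured genes.

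The genes were also read in 8 lists by role, set up with earlier results of these data known. Matrix and cell surface genes stood lowest in triploid clones. Of 18 measured, the median difference was -1.12 against tetraploid clones, with 15 below 0, and -1.08 against diploid clones, with 12 below 0. Over all features 38.1% were below 0 against tetraploid and 42.3% against diploid clones, and over the 593 chromosome 10 genes 68.3% and 57.8%. Over all measured genes these shares were 47.2% and 42.6%. Col10a1, Col18a1 and Lum were called lower against tetraploid clones and Col10a1 against diploid clones, and none was called higher, beside 1.62% and 1.23% of all features called lower. Ccn2, a matricellular growth factor partner, had means of 5.90 ± 1.80 in triploid, 7.62 ± 0.57 in tetraploid and 8.01 ± 0.38 in diploid clones (SD, n = 3 each) and did not pass (adjusted p = 0.161 against diploid clones, limma). Col6a1, a chain of the microfibril collagen VI, had 5.33 ± 1.11, 5.88 ± 0.53 and 4.87 ± 0.27 in triploid, tetraploid and diploid clones.

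Growth signalling genes had a median difference of -0.57 between triploid and tetraploid clones, with 16 of 20 below 0, and Dusp6, on the other side, was the 1 member called. Stat6, a signal transducer of interleukin 4, had means of 0.79 ± 0.26, 1.78 ± 0.15 and 1.61 ± 0.37 in triploid, tetraploid and diploid clones (SD, n = 3 each; adjusted p = 0.0699 against tetraploid clones, limma). The p53 pathway and stress list had a median of -0.53, with 12 of 14 below 0 and none called. Its member Perp, a membrane protein induced by p53, spread too far for a call, at -0.66 ± 1.44 in triploid, 3.29 ± 4.64 in tetraploid and 2.96 ± 2.11 in diploid clones. Chromatin genes had a median of -0.31 with 10 of 14 below 0, and Smarcc2, a subunit of the SWI/SNF remodelling complex, was their 1 call, lower against tetraploid clones (-1.24 ± 0.26, SE, adjusted p = 0.045, limma). Transcription factors had a median of -0.42 with 10 of 12 below 0 and no call against tetraploid clones. Elk3 was their 1 call, lower against diploid clones. Over all features, 1.62% were called lower and 1.09% higher against tetraploid clones, and 1.23% lower against diploid clones. Against tetraploid clones, 38.1% of all features and 68.3% of the chromosome 10 genes were below 0. The counts in these lists are therefore not read as a trait of any list.

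Lists of genes that every dividing cell uses had medians between -0.01 and 0.16. Cell cycle and replication genes had a median difference of 0.00 between triploid and tetraploid clones, with 7 of 14 below 0, mitochondrial genes -0.01 with 8 of 13, and translation genes 0.16 with 4 of 14, and none of these was called. Cdk4 had means of 7.49 ± 0.05 in triploid, 7.49 ± 0.55 in tetraploid and 7.33 ± 0.13 in diploid clones (SD, n = 3 each). Rps12, a protein of the small ribosomal subunit, had 10.25 ± 0.36, 10.09 ± 0.37 and 10.33 ± 0.27, and Atp5b, the catalytic subunit of ATP synthase, 8.85 ± 0.11, 8.80 ± 0.49 and 8.53 ± 0.15. Over all features the median was 0.16 for this comparison, and over all measured genes 0.04. Of all features 38.1% were below 0 and 2.71% were called, and of the chromosome 10 genes 68.3% were below 0. Whether the lists differ from each other was not tested.

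Of the genes that the background filter left out, 327 had a usable probe. Their mean level over the 9 arrays ran up to -2.45, with a median of -5.37. Of the genes kept, 535 were well above background on all 9 arrays, with means down to -3.32, and 26 passed through 2 ploidies. A further 4 passed through the triploid clones alone, 10 through the tetraploid and 18 through the diploid clones. The 58 genes not above background on all arrays had a median level of -2.71.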

How the data were processed

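RNA of 9 clones was measured on 1-colour arrays. Per the file headers, Agilent Feature Extraction 10.7.3.1 gave the processed intensity, already background-corrected, on an array designed on mm9. The deposited log2 table gives values relative to diploid clone 1. Taken relative to that clone, the intensities matched it within 0.001 at 100% of probes after 1 constant per array. The deposited table served as an alternative. From 59305 non-control spots, spots of a probe were averaged, 83 of 55681 probes were left out as outliers, log2 was taken and each array's 75th percentile subtracted. The brightest probe stood for a gene (3092 genes had several). RefSeq's table for GRCm38.p6 gave symbols and chromosome, and its start coordinates set the gene order. Of the probes, 26413 had 1 gene and 29268 none. The promoter windows came from RefSeq for the same build.

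All 9 arrays entered 1 fit with limma 3.58.1 in R 4.3.3, with Benjamini-Hochberg adjustment over 21800 features (12437 genes and 9363 probes without a gene), tested on simulated data. Nothing says that clones of a ploidy came from separate cultures or animals, so p-values measure the spread between these samples, and 3 arrays a group limit the precision. The genes named were, per pair of groups, up to 8 called genes with the largest differences each way among those whose groups did not overlap, called list members, genes beside a step, and up to 4 list members with the highest mean level. Genes named as called neighbours, and list members past these, were chosen after their values were seen. The members and lists were chosen with earlier results of these data known. Alternatives changed the centring, background correction (normexp, run on median signals because the files hold no mean signals, with an offset of 50), filter, probe rule, block size, step limit, slide and clones.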

Additional observations from a re-analysis of the deposited data

Results flagged for a closer look

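The intergenic probes of chromosome 10 entered no comparison of single genes, and 6 of the 154 kept ones were called between groups by limma (adjusted p under 0.05), all lower than in diploid clones. That is 3.9% of them for triploid against diploid clones, against 1.84% of all features, and 1.3% for tetraploid against diploid clones, against 0.0734%. All 6 passed the background filter through the diploid clones alone, the ploidy in which they were high, and nothing is read from their direction. Positions are those of the array design on mm9, with strand, and folds are lower bounds where a ploidy was dark in all its clones.

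Probes A_30_P01018341, A_30_P01021347 and A_30_P01027369 lie in the same transcript, chr10:8606683-8665783 on the reverse strand. They were at least 4.50-fold, 2.53-fold and 2.89-fold lower in triploid than in diploid clones. None of the 3 probes was well above background in any triploid clone, and all were in every diploid clone. A_30_P01018341 had -4.74, -4.65 and -5.82 in triploid clones, against -1.91, -1.05 and -1.83 in diploid clones.

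A_30_P01023797, at chr10:66627543-66629331 on the forward strand, differed by -1.64 for triploid minus diploid, with -3.59, -3.72 and -3.69 in triploid clones, of which 2 were above background, against -2.11, -1.81 and -2.17 in diploid clones.

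Probes A_30_P01030979, at chr10:120336296-120354471 on the reverse strand, and A_30_P01032355, at chr10:93975406-93977476 on the reverse strand, were called in both comparisons with the diploid clones, which share those clones. Both were dark in all triploid and tetraploid clones. A_30_P01030979 was at least 2.76-fold lower in triploid and at least 3.75-fold lower in tetraploid than in diploid clones (adjusted p = 0.00443 and 0.0314, limma). A_30_P01032355 was at least 2.16-fold and 2.94-fold lower in the same comparisons (adjusted p = 0.00827 and 0.0464, limma). No intergenic probe of chromosome 10 was called between triploid and tetraploid clones by limma. An unadjusted p under 0.05 was found for 11 of 154 (7.14%), against 20.8% of all features, and 6 of the 11 were lower in triploid clones.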

How the results depend on the processing

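Limits are few clones and dim probes. Calls moved most. For triploid against diploid clones (13 calls) the count was 22 with centring on probes detected on all arrays, 2 with no filter on dim probes, 0 with slide as a block and 0 to 44 with 1 clone left out. For triploid against tetraploid clones (40 calls) it was 5, with no filter, 14 with slide as a block and 3 to 64 with 1 clone left out. For tetraploid against diploid clones it was 0 to 1. Clone numbers are only names: none of 9 same-number pairs deviated together above a correlation of 0.1 (-0.132 to 0.0927), and a replicate block gave 7 and 25 calls for the first 2 comparisons. Of 363 tests of single named genes under alternatives, 205 stayed past the threshold, 158 did not and 0 changed sign. Against tetraploid clones the call of Smarcc2 held in 5 of 17 settings, of Gstt3 in 6 of 16 and of Col18a1 in 7 of 17. Dusp6 held in 8 of 17, Gstt1 and Psap in 9 of 17, and Lrrtm3, Lum and Slc16a10 in 9 of 16. S100b held in 11 of 16 and Chst3 in 15 of 16. Against diploid clones, Arg1 held in 6 of 16, Elk3 in 6 of 17, Ust in 7 of 16 and Stac3 in 7 of 17. Chst3 held there in 9 of 16.

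With arrays scaled on their median over all probes and no centring on all genes, median shifts were -0.26 and -0.11 in triploid clones 1 and 3. They were 0.34, 0.38 and 0.39 in tetraploid and 0.15, -0.32 and 0.24 in diploid clones. With normexp, triploid clones 2 and 3 had -0.12 and -0.20. With no filter they had -0.11 and -0.13, and diploid clones 0.0095, -0.036 and 0.026. The second probe gave 9.03e-05 in diploid clone 1. With 1 diploid clone left out of the diploid mean, shifts ran from -0.197 to -0.181, -0.18 to -0.158 and -0.286 to -0.268 in triploid clones. In tetraploid clones they ran from 0.0966 to 0.147, 0.19 to 0.212 and -0.0494 to -0.0314. In diploid clones they ran from 0.0122 to 0.0443, -0.0122 to 0.00523 and -0.0422 to -0.00523. Triploid minus diploid was -0.22 in the deposited table, whose values are relative to diploid clone 1. It was -0.21 with no filter and -0.21 with centred genes. In the main setting it ran from -0.354 to -0.259 with 1 clone left out. Tetraploid minus diploid was 0.029 with normexp, and in the main setting ran from 0.0783 to 0.135 with 1 clone left out. Triploid minus tetraploid was -0.31 in the deposited table and -0.32 with centred genes. In the main setting it ran from -0.459 to -0.365 with 1 clone left out.

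The range of block medians depended on block size. In triploid clones it was 1.03, 1.01 and 0.78 with blocks of 15 genes, 0.34, 0.50 and 0.42 with 50, 0.50, 0.56 and 0.50 with normexp, and 0.77, 0.62 and 0.63 with genes detected on all arrays. In tetraploid clone 3 it was 0.47 with 50 and 0.65 with genes detected on all arrays. In diploid clones it was 0.59, 0.60 and 0.79 with 15, 0.23, 0.25 and 0.41 with 50, and 0.44 and 0.27 with normexp in clones 1 and 2. The largest step became -0.32 in triploid clone 2 with 25 genes allowed on a side, and in triploid clone 3 0.23 with 100 and 0.20 with normexp. With 1 diploid clone left out of the diploid mean, the largest step ran from -0.384 to -0.262, 0.228 to 0.318 and -0.267 to 0.222 in triploid clones. In tetraploid clones it ran from -0.176 to -0.112, -0.276 to -0.204 and -0.386 to -0.32. In diploid clones it ran from -0.259 to -0.154, -0.183 to 0.154 and 0.183 to 0.27. The medians of intergenic probes moved by less than the spread in all 18 alternatives. The cause of these moves was not tested.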

Other observations

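Other chromosome 10 genes called lower in triploid than in tetraploid clones, chosen here after their values were seen, include Sgpl1, Smpdl3a and Hk1. Sgpl1, the lyase that splits sphingosine phosphate, had 2.93, 2.70 and 2.65 in triploid clones, against 3.85, 3.83 and 3.74 in tetraploid and 3.78, 3.53 and 4.04 in diploid clones. Smpdl3a, a phosphodiesterase related to acid sphingomyelinase, had -2.30, -4.45 and -2.85 in triploid clones, against 0.94, -1.24 and 1.80 in tetraploid clones. Both genes had triploid values below all tetraploid values. Smpdl3a passed the background filter through 2 ploidies and was not above background on all 9 arrays, so the size of its gap may rest in part on dark arrays. Hk1, a hexokinase of the first step of glycolysis, had 3.53, 2.83 and 3.13 in triploid clones, against 4.73, 4.65 and 4.73 in tetraploid clones, a difference of -1.54 ± 0.24 (SE, adjusted p = 0.0173, limma). Its diploid values of 4.50, 4.04 and 4.08 lay between the other ploidies without overlap.

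Several had clones of a ploidy close together. Tysnd1, a peroxisomal protease, had 3.15, 2.48 and 2.57 in triploid clones, against 4.19, 4.39 and 4.13 in tetraploid clones, a difference of -1.51 ± 0.23 (SE, adjusted p = 0.0165, limma). Mmp11, a secreted metalloproteinase, had 2.15, 1.24 and 1.83 in triploid clones, against 3.47, 3.36 and 4.16 in tetraploid and 2.92, 3.02 and 2.87 in diploid clones, with a difference from tetraploid clones of -1.92 ± 0.30 (SE, adjusted p = 0.017, limma). Cnn2, an actin-binding calponin, had 5.24, 4.89 and 5.07 in triploid clones, against 6.29, 6.14 and 6.31 in tetraploid and 6.31, 6.07 and 6.12 in diploid clones.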
